A study of Mus musculus with 16 samples.

Results

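The 10 genes described here encode enzymes and small proteins that clear reactive oxygen species and their products: Sod1, Sod2, Cat, Gpx1, Gpx4, Prdx1, Prdx5, Txn1, Hmox1 and Nqo1. They were chosen by name. All 10 were found among the 24421 rows of the count table, and all 10 passed the filter on low counts (more than 10 counts in at least 4 libraries) that 14565 genes passed. Each of the 10 had at least 12 counts in every library. Positions of genes are those of GENCODE vM21 on GRCm38.

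The RNA came from CD11b+ brain cells of 16 C57BL/6J mice, 1 library per mouse. CON mice (n = 4) ate standard chow for a month after weaning. MAL mice (n = 5) ate a low protein and low fat diet of equal calories over the same time, and MAL-BG mice (n = 7) ate that diet and were also gavaged with E. coli and Bacteroidales species. The methods describe female mice and a buffer gavage for the groups that got no bacteria. None of the groups analysed here combined bacteria with standard chow, so MAL-BG differs from MAL by the bacteria and from CON by diet and bacteria together. CD11b is a surface protein of microglia that neutrophils and other myeloid cells also carry, and the cells were held back on magnetic beads after dissociation of tissue that the labels call cortical and the methods call whole cerebra.

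Superoxide, formed by mitochondria and by the NADPH oxidase of phagocytes, is turned into hydrogen peroxide by the superoxide dismutases. Catalase, glutathione peroxidases, and peroxiredoxins then reduce the peroxide, the last of these with electrons from thioredoxin. Heme oxygenase-1 breaks down free heme, and NQO1 reduces quinones before they can form radicals. Many of these genes are induced through the transcription factor NRF2, which the adaptor KEAP1 holds in check and which binds antioxidant response elements with a small MAF protein as partner.

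The summed gene counts of the CON libraries lay between 10312703 and 13461574, those of the MAL libraries between 10864121 and 12819982, and those of the MAL-BG libraries between 14191791 and 18705202, so every MAL-BG library was larger than the other 9. Levels are given as CPM, a gene's count per 1000000 counts of the library after TMM scaling of the library sizes. All 15 markers of microglia were detected in every library, with sums of 20131 to 35240 CPM in CON and MAL and 42819 to 59308 CPM in MAL-BG. Libraries also held choroid plexus markers, which summed to 14028 to 54454 CPM in CON, 6516 to 42795 in MAL, and 1785 to 16680 in MAL-BG, and none of these 13 genes was at 0 in any library. Against CON the MAL-BG libraries had less of all 13, as of 8 of 9 neuron and 5 of 7 astrocyte markers, and more of 10 of 15 microglia and 9 of 10 neutrophil markers. MAL-BG library 5 had the largest neutrophil sum (13568 CPM, against 484 to 3320 in the other 15). CON library 1 and MAL libraries 1 and 4 had the lowest choroid plexus sums of their groups (14028, 12538, and 6516 CPM). In bulk RNA, fewer cells of a type and less RNA per cell cannot be told apart.

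Per length, Gpx1 was the most abundant of the 10 genes in every group, with 335 ± 25.1 FPKM (CPM per kilobase of exon) in CON (SD, n = 4), 394 ± 54.9 in MAL (SD, n = 5), and 375 ± 74.7 in MAL-BG (SD, n = 7). In CON it was followed by Sod1 (237 ± 57.8 FPKM), Prdx5 (143 ± 39.6), and Gpx4 (104 ± 24.9), each of which stood apart from the next gene by more than the larger SD on the log2 scale. Next came Prdx1 (61.0 ± 10.7 FPKM), Txn1 (57.7 ± 7.51), Hmox1 (43.9 ± 20.3), and Cat (41.7 ± 8.69), of which no gene was apart from the next within these 4, while Cat was apart from Sod2. Sod2 (11.5 ± 2.34 FPKM) and Nqo1 (9.80 ± 4.27) were last and not apart from each other. In MAL-BG the bottom of the order opened up, with Cat at 22.6 ± 7.82, Sod2 at 7.02 ± 0.736, and Nqo1 at 1.98 ± 1.23 FPKM, each apart from the next. These levels used the union of exons, and with the median length of coding transcripts Prdx5 came before Sod1 in all groups, and Cat before Txn1 in CON and MAL. Together the 10 genes took up 1327 ± 176 CPM of a CON library, 1303 ± 82.4 of a MAL library, and 1277 ± 157 of a MAL-BG library, which differ by less than the SD.

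**Figure D1:**
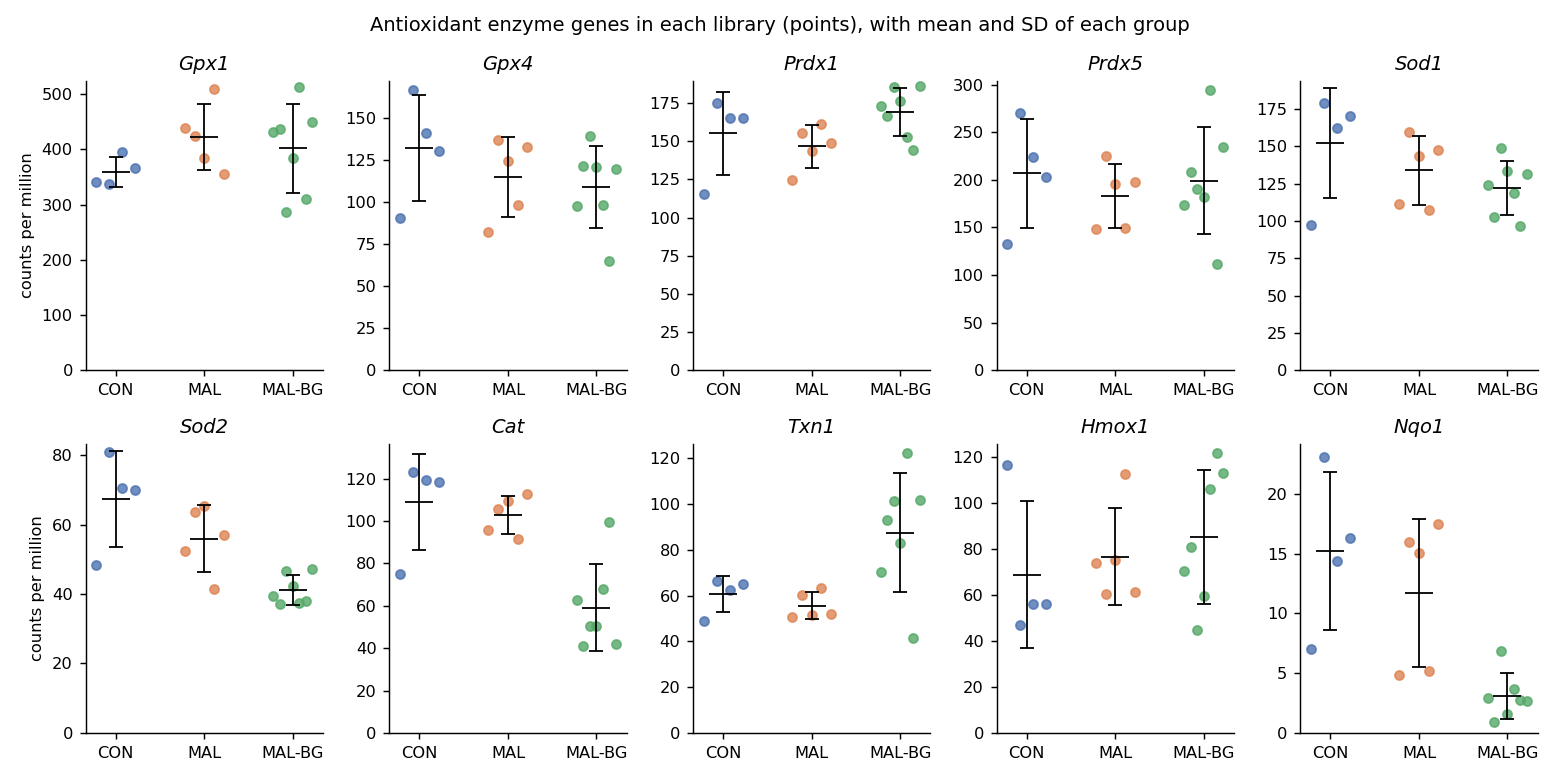
CPM (y axis, from 0) of each of the 10 antioxidant enzyme genes in each library (points; CON n = 4, MAL n = 5, MAL-BG n = 7), with the mean and SD of each group (bars). Nqo1, Cat, and Sod2 sit lower in MAL-BG, 6 of 7 MAL-BG points of Txn1 sit above all other points, and the remaining 6 genes overlap.

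The comparisons asked whether the diet alone, the diet with bacteria, or the bacteria on that diet went with other levels of these enzymes. Against CON, 3 of the 10 genes fell in MAL-BG (Nqo1, Cat, and Sod2) and none passed the test as higher. A gene was called where edgeR's quasi-likelihood test gave a Benjamini-Hochberg adjusted p under 0.05 with a log2 fold change beyond 0.58 in either direction. By the same rule 21.7% of all genes tested were lower and 11.4% higher, so 3 of 10 is near that background. Against MAL, 20.2% of all genes were lower and 10.2% higher in the same fit. Nqo1 and Cat were lower there and Txn1 was higher, the latter turning to -0.05 with libraries scaled to microglia markers. The median log2 fold change of the 10 genes was -0.17 against CON and -0.08 against MAL, beside -0.04 and -0.03 over all genes. The comparisons with CON and with MAL share the MAL-BG libraries. The study's own code had a term for batch, but the sources used here tie no column of the count table to a batch, so the fits below leave that term out and a part of batch in any difference cannot be told apart from the groups.

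**Figure D2:**
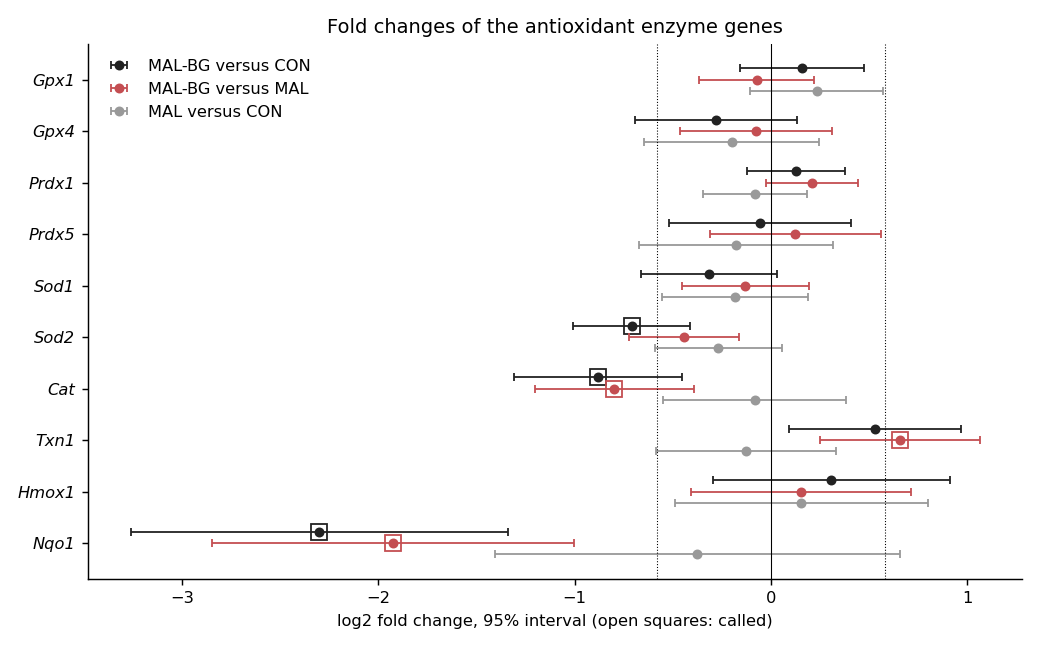
Log2 fold change (x axis) of the 10 genes in 3 comparisons, with 95% intervals from the edgeR fit, dotted lines at the threshold of 0.58, and open squares around called values. Nqo1 is farthest from 0 at -2.30 against CON and -1.92 against MAL, and no value of MAL versus CON is called.

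Of the 2 superoxide dismutases among the 10 genes, the transcript of the mitochondrial enzyme SOD2 was lower in MAL-BG. Sod2 (chr17:13006846-13040063, plus strand) read 48.2, 80.8, 70.4, and 70.0 CPM in the 4 CON libraries and 52.4, 63.5, 65.3, 41.4, and 56.9 CPM in the 5 MAL libraries. MAL-BG libraries ran from 37.2 to 47.2 CPM with a median of 39.6. All 7 lay below every CON library, which 11.1% of all genes did as well (2 of the 10 members, Sod2 and Nqo1), and MAL library 4 fell inside the MAL-BG range. Sod2 fell by 0.71 against CON on the log2 scale (SE 0.141, adjusted p = 8.35e-04 by edgeR). Against MAL the log2 difference of -0.44 (SE 0.133, adjusted p = 0.0129) passed the p but not the fold threshold. An adjusted p under 0.05 at any fold was reached by 45.1% of all genes against CON and by 44.3% against MAL.

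Sod1 (chr16:90220754-90226329, plus strand), the cytosolic copper and zinc enzyme, read 97.5, 179, 162, and 170.0 CPM in CON, 111, 159.6, 143, 108, and 148 CPM in MAL, and 96.6 to 149 CPM with a median of 124 in MAL-BG. The groups overlapped over most of their range, and the 3 CON and MAL libraries with low choroid plexus sums were the lowest of their groups. With TMM scaling Sod1 did not pass in either comparison. Its log2 difference was -0.32 (SE 0.163, adjusted p = 0.126 by edgeR) against CON and -0.13 (SE 0.154, adjusted p = 0.507) against MAL. The interval against CON, -0.66 to 0.03, leaves room for a fall beyond the fold threshold. With libraries scaled to microglia markers Sod1 read -1.17 against CON and -0.89 against MAL, both called lower.

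Catalase, the peroxisomal enzyme that splits hydrogen peroxide into water and oxygen, was lower in MAL-BG in both comparisons. Cat (chr2:103453849-103485160, minus strand) read 75.2, 123, 119, and 118 CPM in CON and 95.9, 106, 109, 91.3, and 113 CPM in MAL. In MAL-BG it ran from 41.1 to 99.7 CPM with a median of 50.5. MAL-BG library 6 (99.7 CPM) stood inside the MAL range, and the other 6 MAL-BG libraries (41.1 to 67.8 CPM) lay below all 9 CON and MAL libraries. Cat fell by 0.88 against CON (SE 0.203, adjusted p = 0.00242) and by 0.80 against MAL (SE 0.192, adjusted p = 0.0033) on the log2 scale. Leaving out any 1 library kept both calls, with log2 differences from -1.06 to -0.73 against CON and from -0.97 to -0.66 against MAL.

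With TMM scaling both glutathione peroxidases stayed within the spread of the libraries. Gpx1 (chr9:108338903-108340343, plus strand), the abundant cytosolic peroxidase, read 339.8, 337, 395, and 366 CPM in CON, 439, 424, 384, 509.5, and 355 CPM in MAL, and 286 to 512 CPM (median 431) in MAL-BG. MAL-BG libraries held both the lowest and the highest value of all 16. Its log2 difference was 0.16 (95% interval -0.16 to 0.48) against CON and -0.07 (-0.37 to 0.22) against MAL. With TMM scaling a change of the threshold size thus lay outside both intervals. With libraries scaled to microglia markers Gpx1 read -0.68 against CON and -0.82 against MAL, both called lower.

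Gpx4 (chr10:80047166-80056439, plus strand), which reduces lipid peroxides within membranes and guards cells against ferroptosis, read 90.5, 167, 141, and 130.2 CPM in CON, 82.3, 137, 124, 98.1, and 133 CPM in MAL, and 65.2 to 139 CPM (median 119.7) in MAL-BG. The lowest value of all 16 was that of MAL-BG library 6. The log2 difference of Gpx4 was -0.28 (-0.69 to 0.13) against CON and -0.08 (-0.47 to 0.31) against MAL. With libraries scaled to microglia markers it read -1.11 against CON and -0.83 against MAL, both called lower. Of the read-length windows in the longest Gpx4 coding transcript, 63.7% also occurred in other transcripts, among them the pseudogene Gpx4-ps2, so its counts depend on how shared reads were treated. The share was 30.1% for Prdx5, whose exons overlap Trmt112 on the opposite strand, 28.2% for Sod1, 13.5% for Prdx1, 3.37% for Txn1, and 2.04% for Sod2, and it was 0 for Gpx1, Cat, Hmox1, and Nqo1.

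The 2 peroxiredoxins did not pass the test with TMM scaling. Prdx1 (chr4:116685544-116700822, plus strand), a cytosolic thioredoxin-dependent peroxidase, read 115, 175, 165, and 165 CPM in CON, 125, 155, 144, 161, and 149 CPM in MAL, and 144 to 186 CPM (median 173) in MAL-BG. In MAL-BG, 3 libraries exceeded all 9 others and 4 did not. The log2 difference was 0.13 (-0.12 to 0.37) against CON and 0.21 (-0.03 to 0.44) against MAL. With TMM scaling these intervals end short of the fold threshold. With libraries scaled to microglia markers Prdx1 read -0.72 against CON, called lower, and -0.54 against MAL, not called.

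Prdx5 (chr19:6906697-6910106, minus strand), found in mitochondria, peroxisomes, and the cytosol, read 132, 269.8, 224, and 202 CPM in CON, 148, 225, 195, 149, and 197 CPM in MAL, and 111 to 295 CPM (median 190.0) in MAL-BG. MAL-BG held the highest value (library 5) and the lowest (library 6) of all 16. The log2 difference was -0.06 (-0.52 to 0.41) against CON and 0.12 (-0.31 to 0.56) against MAL. With libraries scaled to microglia markers Prdx5 read -0.90 against CON, called lower, and -0.64 against MAL, not called.

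Thioredoxin, the small protein that passes electrons from NADPH to peroxiredoxins, was the single member called higher, and against MAL only. Txn1 (chr4:57943373-57956411, minus strand) read 49.1, 66.2, 62.4, and 64.9 CPM in CON and 50.6, 60.3, 51.5, 63.3, and 52.0 CPM in MAL. In MAL-BG it read 70.3, 92.9, 101, 83.1, 122, 41.4, and 102 CPM. So 6 MAL-BG libraries lay above all 9 others, and MAL-BG library 6, at 41.4 CPM, lay below all of them. Txn1 was higher than in MAL by 0.66 on the log2 scale (SE 0.193, adjusted p = 0.0113), which turned to -0.05 with libraries scaled to microglia markers. Against CON the log2 difference of 0.53 (SE 0.207, adjusted p = 0.0459) missed the fold threshold, and without MAL-BG library 6 it was 0.65 (adjusted p = 0.00163) and called. Without MAL-BG library 5, the library rich in neutrophil markers, the difference from MAL was 0.54 (adjusted p = 0.0234), under the fold threshold.

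Hmox1 (chr8:75093621-75100589, plus strand), for heme oxygenase-1, read 116, 47.0, 55.9, and 56.1 CPM in CON, 74.0, 60.3, 75.2, 112, and 61.2 CPM in MAL, and 44.8 to 121 CPM (median 80.7) in MAL-BG. The high values in CON and MAL were those of CON library 1 and MAL library 4. These libraries were also highest of their groups in early response genes such as Fos and Jun (39440 and 45166 CPM in sum), a part in the result that was not tested. Its log2 difference was 0.31 (-0.30 to 0.91) against CON and 0.15 (-0.41 to 0.71) against MAL, so neither direction can be read at this spread. Without CON library 1 the value against CON was 0.67, still not called. With libraries scaled to microglia markers Hmox1 read -0.47 against CON, not called, and -0.60 against MAL, called lower.

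Nqo1 (chr8:107388225-107403206, minus strand), for the quinone reductase often used as a readout of NRF2, fell most and from the lowest level. It read 6.99, 23.1, 14.4, and 16.4 CPM in CON and 4.85, 16, 15.1, 5.16, and 17.5 CPM in MAL. In MAL-BG it read 2.95, 0.919, 6.89, 1.62, 3.69, 2.79, and 2.67 CPM, which rest on 12 to 100 counts. All MAL-BG libraries lay below all CON libraries, though MAL-BG library 3 (6.89 CPM) came close to CON library 1 (6.99 CPM) and exceeded MAL libraries 1 and 4. Nqo1 fell by 2.30 against CON (SE 0.456, adjusted p = 8.46e-04) and fell by 1.92 against MAL (SE 0.436, adjusted p = 0.00227) on the log2 scale, to 0.203 and 0.264 of the level. Against all 9 other libraries none of the 10 genes was fully apart, where 6.36% of all genes had all MAL-BG libraries below and 6.17% all above.

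Between MAL and CON no member was called, nor was any of the 14565 genes (0% higher and 0% lower) by edgeR, with 212 genes and 0 of the 10 members at an unadjusted p under 0.05. DESeq2 called 0 genes too. The log2 differences of the members ran from -0.38 (Nqo1, 95% interval -1.41 to 0.65) to 0.23 (Gpx1, -0.11 to 0.57), with 2 of the 10 above 0. Sod2 had the lowest unadjusted p of the 10 by edgeR (0.0968), with a log2 difference of -0.27 (95% interval -0.59 to 0.05). Its adjusted p was 0.999, as for every other member.

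Levels of 5 members moved with the choroid plexus sum of a library inside the groups. In an edgeR fit with the log2 of that sum as a covariate, added after seeing the data, Nqo1 rose by 0.69 on the log2 scale per doubling of the sum (SE 0.119, adjusted p = 5.76e-04). Sod1 rose by 0.23 (SE 0.0459, adjusted p = 0.00215), Gpx4 by 0.20 (SE 0.0673, adjusted p = 0.0409), and Sod2 by 0.19 (SE 0.0425, adjusted p = 0.00437), while Hmox1 fell by 0.38 (SE 0.0848, adjusted p = 0.0044). Slopes of Cat (0.07, SE 0.0921) and Txn1 (0.02, SE 0.0848) did not pass, and over all genes 25.4% had a slope past the same adjusted p. With the neutrophil sum as the covariate 0 of the 10 members had such a slope, against 1.61% of all genes.

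None of the calls of members held in the fit with the choroid plexus covariate, in which 2378 genes were called against CON and 3180 against MAL. The log2 difference of Nqo1 shrank to -0.58 (SE 0.403, adjusted p = 0.327) against CON and -0.44 (SE 0.354, adjusted p = 0.367) against MAL. That of Sod2 against CON shrank to -0.22 (SE 0.147, adjusted p = 0.304). For Cat the value stayed near that without the covariate but its error grew, with -0.70 (SE 0.319, adjusted p = 0.128) against CON and -0.65 (SE 0.273, adjusted p = 0.081) against MAL. Txn1 likewise read 0.58 (SE 0.299, adjusted p = 0.178) and 0.70 (SE 0.257, adjusted p = 0.0524). The sums of the groups overlapped in few libraries: MAL-BG library 3 lay above CON library 1 and MAL library 1, and MAL-BG libraries 1 and 4 above MAL library 4. How much of each difference goes with choroid plexus RNA and how much with treatment cannot be told apart beyond these libraries. With CON library 1 and MAL libraries 1 and 4 left out, also a choice made after seeing the data, Sod2, Cat, and Nqo1 were lower in both comparisons. Txn1 was higher than in MAL, and Sod2 read -0.60 against MAL (adjusted p = 4.12e-04 by edgeR). The CON and MAL libraries that remained had choroid plexus sums of at least 28416 CPM, and no MAL-BG library exceeded 16680 CPM. That choice thus widens the choroid plexus difference between the groups, so it cannot separate choroid plexus RNA from treatment. With the neutrophil sum as the covariate, the 3 calls against CON and those of Cat and Nqo1 against MAL held, and Txn1 against MAL did not (log2 difference 0.46, adjusted p = 0.081).

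**Figure D3:**
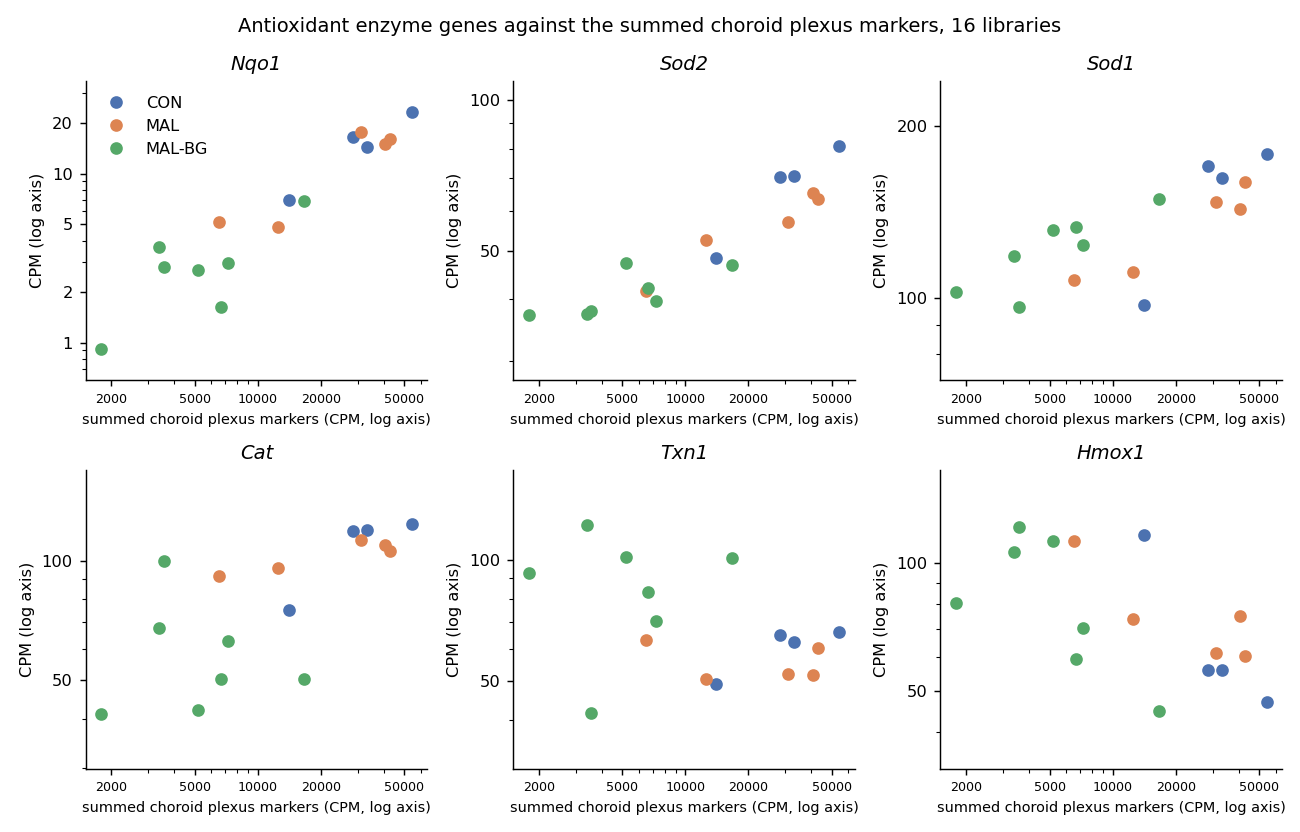
CPM of 6 of the genes (y axis, log scale) against the summed CPM of 13 choroid plexus markers (x axis, log scale) in 16 libraries. Nqo1, Sod2, and Sod1 climb with the sum in points of all groups, 6 of 7 MAL-BG points of Cat lie below and 6 of 7 of Txn1 above all points of the other groups at any sum, and Hmox1 declines.

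Relative to microglia markers all 10 genes lay below 0. With the libraries scaled to the geometric mean of the 15 microglia markers, the median of all genes moved by -0.82 against CON and by -0.75 against MAL. On that scale 8 of the 10 members were called lower against CON and 7 against MAL, beside 62.6% and 57.9% of all genes. The median log2 difference of the members was -1.01 and -0.82, beside -0.86 and -0.78 over all genes. Txn1 read -0.29 against CON and -0.05 against MAL and Hmox1 -0.47 and -0.60, so the sign of Txn1, Hmox1, Prdx1, Gpx1 against CON, and Prdx5 against MAL depends on the scale. Nqo1 (-3.13 and -2.69), Cat (-1.76 and -1.59), and Sod2 (-1.56 and -1.22) kept their direction. The choice of scale also moves the balance over all genes. Among called genes 34.4% were higher against CON and 33.4% against MAL with TMM scaling, 22.4% and 20.1% with library totals, 0.784% and 0.916% with microglia markers, and 57.8% and 57.1% with mean log2 CPM scaling and offsets for gene length and GC content.

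**Figure D4:**
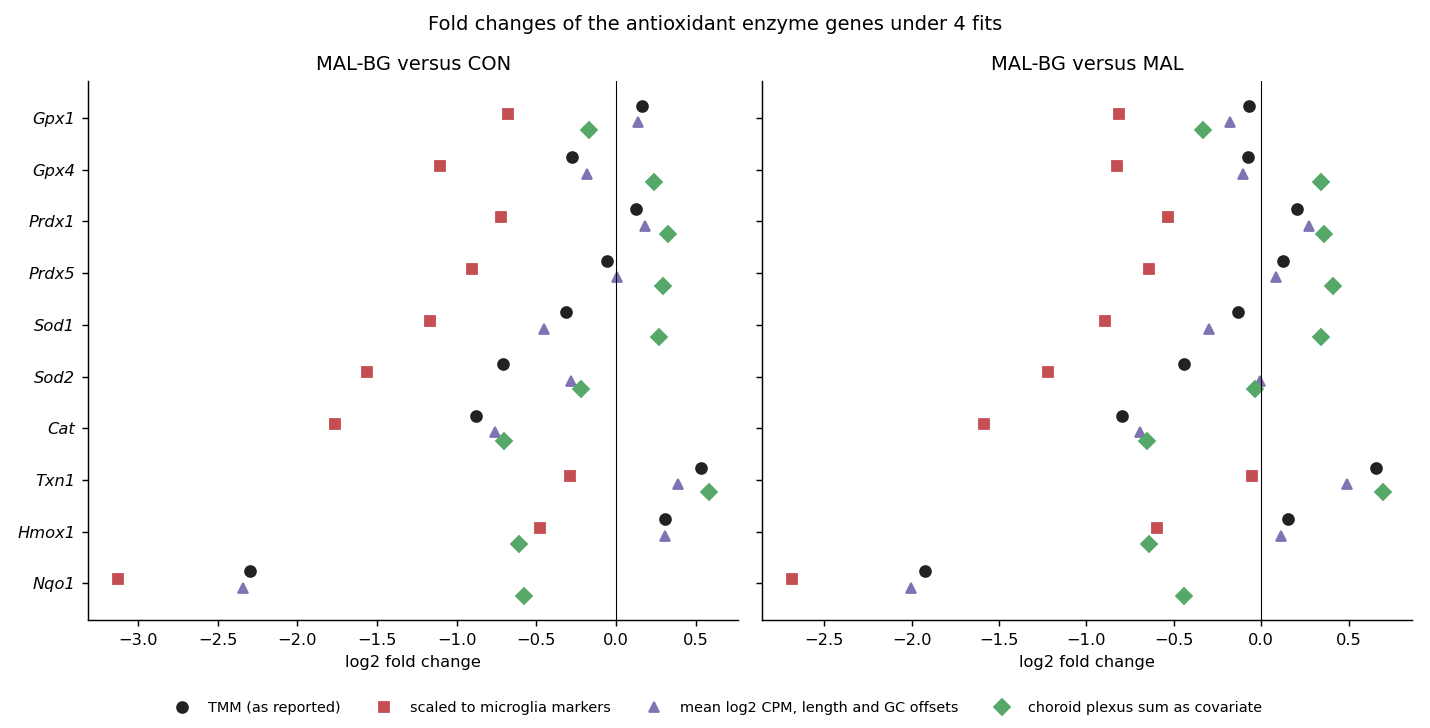
Log2 fold change (x axis) of the 10 genes in MAL-BG versus CON (left) and versus MAL (right) under the fit with TMM scaling, with scaling to microglia markers, with mean log2 CPM scaling and offsets for gene length and GC content, and with the choroid plexus sum as a covariate. Nqo1 and Cat stay below 0 in all 4 fits, while Txn1 is above 0 in 3 of them and below in the fit scaled to microglia markers.

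Pathway lists around the 10 genes held both higher and lower genes. Over all genes tested 11.4% were called higher and 21.7% lower against CON, and 10.2% and 20.2% against MAL. These shares stand beside the counts of every list below, and no list was tested against them. Of the 5 superoxide dismutase and catalase genes, 3 were lower against CON and 2 against MAL, and none was higher. Sod3, the secreted dismutase, fell by 1.88 against CON (adjusted p = 0.00259) and by 1.24 against MAL (adjusted p = 0.0229). Of 5 tested glutathione peroxidases 1 was called, Gpx8, a peroxidase of the endoplasmic reticulum, which fell by 1.88 against CON and read -1.498 against MAL, also called. Of 7 peroxiredoxin and sulfiredoxin genes, Prdx6 fell by 0.70 against CON and 0.61 against MAL, and Srxn1, whose product repairs overoxidized peroxiredoxins, fell by 1.06 and 0.74. Prdx4, a peroxiredoxin of the endoplasmic reticulum named after its value was seen, was the 1 gene of that list called higher, by 0.62 against MAL. Of 6 genes of heme degradation and quinone reduction Nqo1 alone was called.

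The 14 genes of thioredoxins, glutaredoxins, and methionine sulfoxide reductases had a median log2 difference of 0.45 against CON with TMM scaling, which is less than the shift that scaling to microglia markers brings, with 2 called higher and 1 lower, and 3 called higher and 0 lower against MAL. Txnrd2, the mitochondrial thioredoxin reductase, was higher by 0.81 against CON and by 0.60 against MAL, the latter turning to -0.12 on the scale of microglia markers. Msra, which repairs oxidized methionine, was higher by 0.59 against CON, turning to -0.26 on that scale, and its difference of 0.50 from MAL was not called. The third gene called higher against MAL, beside Txn1 and Txnrd2, was Glrx5 (0.73), named after its value was seen. Txnrd1, the cytosolic reductase that recycles thioredoxin, fell by 0.62 against CON (adjusted p = 0.00339) and read -0.35 against MAL, which was not called.

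Among 20 genes of glutathione synthesis, recycling, and transfer, 3 were higher and 3 lower against CON, and 3 and 2 against MAL. The shares over all genes were 11.4% and 21.7% against CON, and 10.2% and 20.2% against MAL. Gsr, glutathione reductase, was higher by 0.83 against CON (adjusted p = 0.0333) and read 0.45 against MAL, not called. Ggt5 was higher by 0.94 and 0.90, and Mgst3 by 0.63 and 0.60, the last 2 values turning to -0.20 and -0.14 on the scale of microglia markers. Slc3a2, a transporter subunit named after its value was seen, was higher by 0.61 against MAL. Slc3a2, Prdx4, and Glrx5 were not tested on that scale, which moved the median of all genes by -0.75 against MAL. Glutathione transferases made up the lower genes, with log2 differences from CON and MAL of -2.06 and -1.59 for Gstt1, -1.05 and -0.79 for Gsta4 (the latter not called), and -0.98 and -0.78 for Gstm5. Gclc and Gclm, the subunits of the enzyme that starts glutathione synthesis, were not called, with log2 differences of -0.39 each against CON.

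In the NRF2 list the calls fell on regulators and partners. Nfe2l2, the gene of NRF2, read -0.10 against CON and 0.12 against MAL on the log2 scale, and neither was called. Keap1 was higher by 0.63 (adjusted p = 0.00102) and 0.59 (adjusted p = 0.00105), and on the scale of microglia markers read -0.18 and -0.14. The small MAF genes Maff and Mafk had log2 differences of -3.37 and -1.01 against CON and -2.39 and -0.65 against MAL, all called as lower, while Mafg read 0.55 and 0.52 without passing. In all, 1 of 9 NRF2 regulators was higher and 2 lower against CON, and 1 and 3 against MAL, the third being Cul3 (-0.61), named after its value was seen. For these regulators and the early response genes below, the shares over all genes were 11.4% higher and 21.7% lower against CON. Against MAL they were 10.2% and 20.2%. Of 13 early response genes, a class quickly induced when cells are handled, 6 were lower and 1 higher in MAL-BG against CON, and 8 were lower and 2 higher against MAL, and their part in the values of Maff was not tested. The higher ones, named after their values were seen, were the heat shock genes Hspa1b (1.36) against CON and Hspa1a (1.15) and Hspa1b (1.44) against MAL.

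Textbook targets of NRF2 held called genes in both directions. Of 20 such genes, 4 of them members, 4 were higher and 4 lower against CON, and 1 and 3 against MAL. Over all genes 11.4% were higher and 21.7% lower against CON, and 10.2% and 20.2% against MAL. The list was not tested against these shares. Its median log2 difference was -0.28 against CON and -0.16 against MAL, beside -0.04 and -0.03 over all genes. The lower genes against CON were Nqo1, Me1, Srxn1, and Txnrd1. The higher ones were Gsr, Pgd, Tkt, and Taldo1, the last 3 of which belong to the pentose phosphate pathway. Among the 8 genes of NADPH supply, Pgd, Tkt, and Taldo1 were higher by 0.66, 0.66, and 0.62 against CON and, with values of 0.48, 0.55, and 0.56, were not called against MAL. On the scale of microglia markers these 3 lay between -0.24 and -0.12 in both comparisons. Malic enzyme Me1 fell by 1.98 against CON and fell by 1.59 against MAL.

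On the side that makes superoxide, Cyba, a subunit of the phagocyte NADPH oxidase, was higher by 1.15 against CON (adjusted p = 2.68e-04) and by 1.08 against MAL (adjusted p = 2.50e-04), and it was the 1 gene called of 7 tested in that list. Cybb, its catalytic partner, read 0.07 and -0.43 without passing. Of 13 genes of selenoproteins and selenium handling, on which some glutathione peroxidases depend, 2 were higher and 2 lower in each comparison. All genes tested had 11.4% higher and 21.7% lower against CON, and 10.2% and 20.2% against MAL. Pstk and Vimp, listed now as Selenos, were higher by 0.79 and 0.83 against CON and by 0.78 and 0.85 against MAL, with Pstk at -0.02 against CON on the scale of microglia markers. Sepsecs, the last enzyme of selenocysteine synthesis, fell by 1.08 and 1.44, and Lrp8, a selenoprotein P receptor, by 1.21 and 1.15. Between MAL and CON, 0 genes of these 11 lists were called.

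Many of these list calls rest on the scale, on the marker sums, or on single libraries. The text names 25 list genes called against CON by the rule of largest changes, 12 higher and 13 lower. On the scale of microglia markers all 13 lower genes kept their calls against CON and none of the 12 higher ones did. Cyba read 0.36, Ggt5 0.19, Txnrd2 and Vimp 0.015, and Gsr 0.0050. That scale moved the median of all genes by -0.82 and left 72 genes called higher, where TMM scaling called 1659. A shift of that size decides most of the split, which therefore does not test these genes apart from all others. Of the same 25 genes, 7 were also called higher against MAL. None of these 7 kept its call on that scale, with Cyba at 0.36 and Vimp at 0.11. Prdx4, Glrx5, and Slc3a2, also called higher against MAL, are outside this count and were not tested on that scale. Over all genes that scale called 78 higher against MAL, where TMM scaling called 1479. In the fit with the choroid plexus covariate, 6 of the 12 higher genes (Mgst3, Keap1, Tkt, Cyba, Vimp, and Pstk) and 2 of the 13 lower ones (Maff and Mafk) kept their calls against CON. The other 6 higher genes (Txnrd2, Msra, Gsr, Ggt5, Pgd, and Taldo1) and the other 11 lower ones lost them. Over all genes, that fit called 944 higher and 1434 lower against CON, where the fit without the covariate called 1659 and 3161. These are totals of each fit and not counts of calls kept.

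With the neutrophil sum as the covariate, 5 of the 12 higher genes lost their calls against CON, namely Msra (0.23), Gsr (0.29), Pgd (0.32), Taldo1 (0.41), and Tkt (0.46). The same 5 lost them without MAL-BG library 5, the library with the largest neutrophil sum, at 0.40, 0.54, 0.56, 0.54, and 0.56 in that order. Of the 13 lower genes, Gstm5 (-0.72), Gsta4 (-0.67), Me1 (-1.36), and Sepsecs (-0.88) were not called with that covariate.

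Leaving out 1 library ended the call of 10 of the 25 genes against CON. For Sepsecs it did so for CON libraries 1, 2, and 4 and MAL-BG libraries 1, 2, 3, 4, 5, and 7 (values from -1.09 to -0.87). For Gsta4 it was CON libraries 2, 3, and 4 and MAL-BG libraries 1, 2, 6, and 7 (-1.06 to -0.88), and for Txnrd1 CON library 2 and MAL-BG libraries 1, 2, 4, and 7 (-0.55 to -0.51). Msra lost its call without any 1 of the 4 CON libraries and without MAL-BG library 5 (0.40 to 0.64), and Gsr without CON library 1, 2, or 4 or MAL-BG library 5 (0.54 to 0.88). Prdx6 depended on CON libraries 2 and 4 (-0.64 and -0.61) and Mgst3 on CON library 1 and MAL-BG library 3 (0.44 and 0.52). Besides MAL-BG library 5, Pgd depended on CON libraries 2 and 4 (0.54 and 0.60) and Taldo1 on CON library 1 (0.55). Txnrd1, Taldo1, and Tkt missed only the fold threshold in such fits, with an adjusted p by edgeR of at most 0.0250. The share of all called genes that depend on 1 library was not tested, so 10 of 25 has no background beside it.

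Of the 25 genes, 18 were also called against MAL, and the calls of 8 of these depended on a single library. Prdx4, Glrx5, Slc3a2, and Cul3 are outside this count, and the share of all called genes was not tested. Keap1 fell under the fold threshold without any 1 of 9 libraries (CON 1, 2, 3, and 4, MAL 1, 3, and 5, and MAL-BG 2 and 3, at 0.56 to 0.58). Its adjusted p by edgeR in those fits was at most 0.00352, so only the fold threshold ended its call. Prdx6 depended on MAL libraries 2 and 5 and MAL-BG libraries 1, 2, 4, 6, and 7 (-0.60 to -0.45). Its adjusted p was 0.101 without MAL library 5. Sod3 depended on MAL libraries 2 and 3 and MAL-BG libraries 2, 4, and 7 (-1.15 to -1.04, adjusted p from 0.0512 to 0.0708). Txnrd2 depended on MAL libraries 1, 2, 3, and 5 (0.54 to 0.58) and Mgst3 on MAL libraries 4 and 5 and MAL-BG library 3 (0.49 to 0.57). Gstm5 (-0.65) and Me1 (-1.38) lost the call without MAL library 2, and Mafk (-0.54) without MAL-BG library 7.

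**Figure D5:**
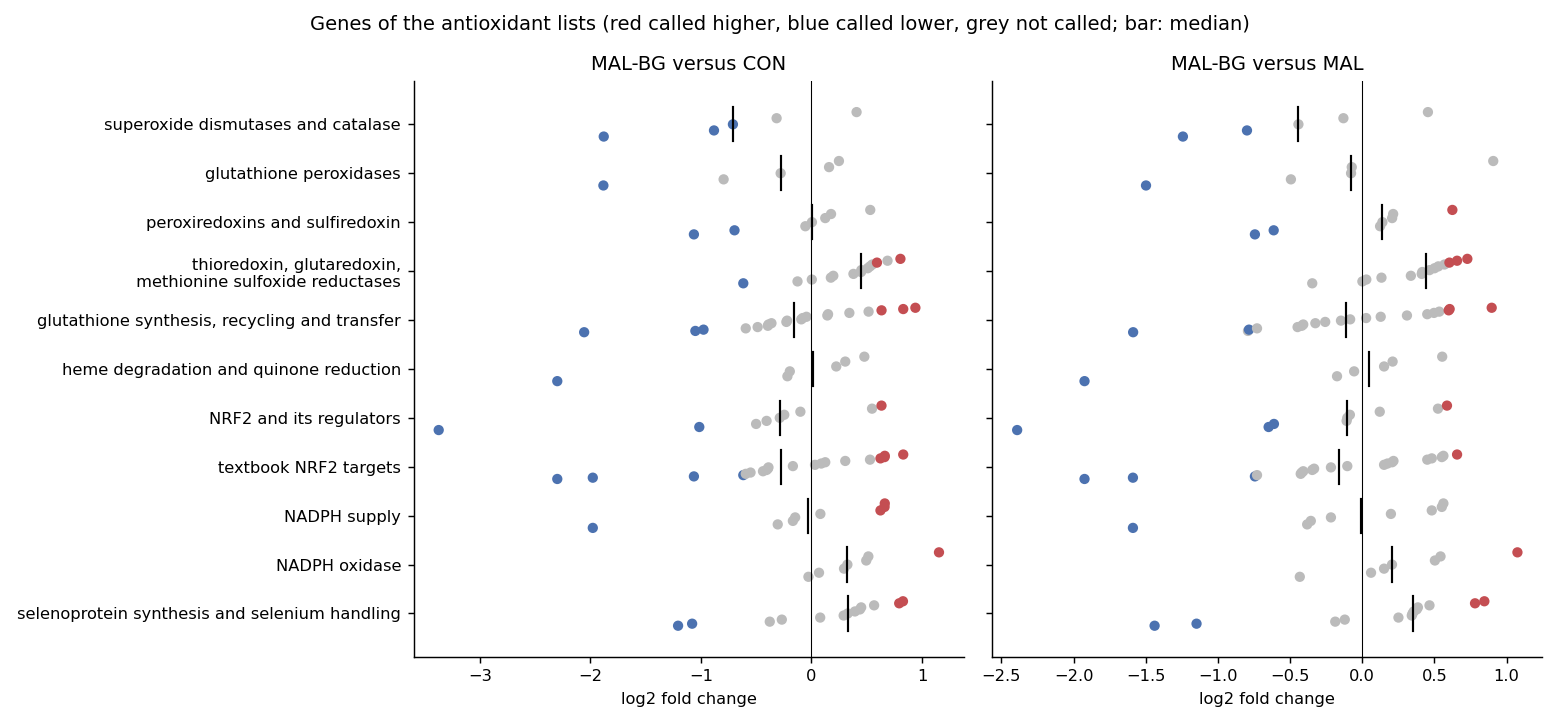
Log2 fold change (x axis) of each tested gene of 11 antioxidant gene lists in MAL-BG versus CON (left) and versus MAL (right), with red for called higher, blue for called lower, grey for not called, and a bar at each list's median. Superoxide dismutases and catalase lie mostly below 0 with a median of -0.71 against CON, and thioredoxin-related genes mostly above it with a median of 0.45, all with TMM scaling.

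Promoters are shown for Txn1 and Nqo1, both textbook NRF2 targets and the members with the highest and the lowest log2 difference from CON. RefSeq promoters on GRCm38.p6, from 250 bases before the gene's start to 50 after it, were at hand for 9 of the 10 genes, all but Hmox1, and were searched on both strands for the antioxidant response element core TGACNNNGC. Neither sequence holds a match, so both stand in lower case. The Txn1 promoter lies at chr4:57956362-57956661 on the minus strand and the Nqo1 promoter at chr8:107403156-107403455 on the minus strand, both written 5′ to 3′ along the gene.
Txn1: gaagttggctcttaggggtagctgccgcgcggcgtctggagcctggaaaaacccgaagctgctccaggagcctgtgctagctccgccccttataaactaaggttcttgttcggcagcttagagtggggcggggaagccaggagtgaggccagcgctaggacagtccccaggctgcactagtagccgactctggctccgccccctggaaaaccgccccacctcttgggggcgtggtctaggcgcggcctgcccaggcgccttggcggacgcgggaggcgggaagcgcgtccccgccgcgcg
Nqo1: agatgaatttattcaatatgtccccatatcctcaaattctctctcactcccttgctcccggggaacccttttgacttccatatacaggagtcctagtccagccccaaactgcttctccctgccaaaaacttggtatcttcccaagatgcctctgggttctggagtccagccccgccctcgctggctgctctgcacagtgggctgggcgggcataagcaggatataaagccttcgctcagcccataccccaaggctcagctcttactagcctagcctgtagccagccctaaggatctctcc
The 9 genes have 12 promoters, of which 2 held the core, those of Prdx1 and Sod1, beside 12.4% of all 32851 promoters in the table. Both matches read TGACNNNGC on the strand opposite to the gene, so the capitals below show the core in reverse complement, with 10 bases on each side. The Prdx1 window lies at chr4:116685456-116685484, with the core at 133 to 125 bases before the RefSeq start. The Sod1 window lies at chr16:90220696-90220724, with the core at 56 to 48 bases before the RefSeq start. Both are on the plus strand, and both RefSeq starts differ from the GENCODE starts given above.
Prdx1: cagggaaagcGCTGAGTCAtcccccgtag
Sod1: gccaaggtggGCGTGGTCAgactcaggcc
With TMM scaling neither Prdx1 nor Sod1 was called in any comparison. With libraries scaled to microglia markers Prdx1 was called lower against CON, and Sod1 against CON and against MAL. A match is a run of letters and not a measured site, and these windows leave out elements farther away.

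Genes with the most similar pattern were found by the root mean square difference of log2 CPM, each gene centred on its own mean, over the 16 libraries. The nearest of all genes to Nqo1 were Spag16, a gene of cilia, and Gm11992, at 0.276 and 0.294. Cat lay nearest to Ccng1 and Pdxdc1 (0.132 and 0.146, own spread 0.542), Sod2 to Zwint and Phyh (0.112 and 0.117, own spread 0.357), and Txn1 to Shfm1 and Aprt (0.168 and 0.174, own spread 0.429). Gpx4 lay nearest to Map1lc3a and Uqcrq (0.0930 and 0.0969) and Sod1 to Cox7a2 and Atp5h (0.100 and 0.106), of which Uqcrq, Cox7a2, and Atp5h encode parts of the respiratory chain or ATP synthase. Gpx1 lay nearest to Emp3 and Arpc5, Prdx5 to Ccnd3 and Dctn3, Hmox1 to Zfp658 and Dctn5, and Prdx1 to Ndufs3 and a row whose name had become a date (0.0874 and 0.0873). Among the 10 themselves Gpx4 and Sod1 were closest (0.175) and Hmox1 and Nqo1 farthest apart (1.58).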

How the data were processed

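The authors deposited 1 table of raw read counts per gene for all libraries, made with STAR and HTSeq on the mouse genome GRCm38.p6. The counting annotation and strand option are not given in the sources used here. Column names carry the group and a running number that matches no sample title, so replicates are named by those numbers. The study's code fitted batch with condition. No column could be tied to a batch from the sources used here, so the fits below hold no batch term. Each library is a separate mouse. The methods describe mice housed several to a cage, and no column names its cage, so a part of cage in any difference was not tested.

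The counts as deposited were fitted once over the 3 groups with edgeR 4.0.16 (TMM, quasi-likelihood test, R 4.3.3) after a filter of more than 10 counts in at least 4 libraries. P-values were adjusted by Benjamini-Hochberg over all 14565 genes, and a gene was called below an adjusted p of 0.05 with a log2 fold change beyond 0.58 in either direction. FPKM used exon lengths of GENCODE vM21. DESeq2 1.42.0, other scalings and filters, and leaving out each library were the alternatives, and 4 more were added after seeing the data.

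Besides the 10 genes, up to 3 called genes with the largest rise and 3 with the largest fall against CON were named from each pathway list, with 2 nearest genes per member. Exceptions are marked, apart from Gclc, Gclm, Nfe2l2, Mafg, and Cybb, which were not called and were named outside this rule. The members and lists were chosen with earlier results of these data known.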

Additional observations from a re-analysis of the deposited data

Results flagged for a closer look

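In 4 of the 30 groups of values (10 genes in 3 groups) a single library lay far from the others by Dixon's criterion, which chance alone gives in about 1 of 20 groups. In CON library 1, Prdx1 was lowest at 115 CPM with the next library at 165, Cat was lowest at 75.2 CPM with the next at 118, and Hmox1 was highest at 116 CPM with the next at 56.1. In MAL library 4, Hmox1 was highest at 112 CPM with the next library at 75.2. Both libraries had the lowest choroid plexus sum and the highest early response sum of their group, and the part of either in these values was not tested.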

How the results depend on the processing

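Cat and Nqo1 kept their calls in 30 of 31 alternatives in each MAL-BG comparison, the exception being the choroid plexus covariate, and MAL versus CON gave no called member in any. Against MAL, the count of members called higher was 0 instead of 1 with library totals, microglia markers, length and GC offsets, the choroid plexus covariate, and the neutrophil covariate, and ran from 0 to 1 over single libraries left out (0 without MAL-BG library 5). Against CON it was 1 with no fold threshold and without MAL-BG libraries 5 and 6, and ran from 0 to 1 (1 without MAL-BG library 1, 4, or 6). Scaling to microglia markers called 9187 genes against CON and 8517 against MAL and 8 and 7 members as lower, and the choroid plexus covariate called 2378 genes against CON and 0 members as lower in both. Sod2 against CON was not called with length and GC offsets (-0.29, adjusted p = 0.0568).

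Signs turned in values that were mostly not called, and the cause was not tested. With library totals Prdx1 read -0.013 against CON and Prdx5 -0.019 against MAL, and with length and GC offsets Prdx5 read 0.0048 against CON. With microglia markers the values against CON were Gpx1 -0.68, Prdx1 -0.72, Txn1 -0.29, Hmox1 -0.47, Msra -0.26, Mgst3 -0.20, Keap1 -0.18, Pgd -0.12, Taldo1 -0.20, Tkt -0.16, and Pstk -0.025. Against MAL they were Prdx1 -0.54, Prdx5 -0.64, Txn1 -0.054, Hmox1 -0.60, Txnrd2 -0.12, Msra -0.23, Gsr -0.30, Mgst3 -0.14, Keap1 -0.14, Pgd -0.24, Taldo1 -0.17, and Tkt -0.20. Without the 3 libraries low in choroid plexus markers, Prdx1 read -0.0125 against CON, and Gpx1 0.04 and Prdx5 -0.058 against MAL. Without MAL-BG libraries 5 and 6, Gpx4 read 0.10 and Hmox1 -0.037 against MAL. With the choroid plexus covariate the values against CON were Gpx1 -0.17, Gpx4 0.24, Prdx5 0.29, Sod1 0.27, Hmox1 -0.61, Gpx8 0.10, Gstm5 0.0805, Gsta4 0.54, and Pgd -0.0059. Against MAL they were Gpx4 0.34, Sod1 0.34, Hmox1 -0.64, Sod3 0.18, Gpx8 0.17, Gstm5 0.0802, Gsta4 0.56, Pgd -0.075, and Me1 0.088. With the neutrophil covariate Gpx1 read -0.084 and Hmox1 -0.032 against CON, and Gpx4 0.010, Prdx5 -0.094, Hmox1 -0.19, and Gsr -0.027 against MAL. Over single libraries left out, Prdx1 against CON ran from -0.0127 to 0.20, Prdx5 from -0.24 to 0.083 against CON and -0.0129 to 0.23 against MAL, Gpx4 against MAL from -0.19 to 0.0153, and Hmox1 in MAL versus CON from -0.0251 to 0.52.

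No paired analysis was possible because the running numbers in the count table match no sample title. This leaves each column without an animal, a litter, a cage, a day, or the batch that the study's code fitted. No fit with that batch was run. Depth limits Nqo1 most, with 12 to 100 counts per MAL-BG library.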
